A study of Mus musculus with 20 samples.

Results

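The regions described here were open in wild-type mouse embryonic stem cells (ESCs) and were not called in ESCs labelled as Mettl3 knockout. Of 193427 regions of accessible chromatin found across 12 ATAC-seq libraries, 2653 were called in 3 of 3 ESC wild-type (WT) libraries and in 0 of 3 ESC Mettl3 knockout (KO) libraries. They made up 1.68% of the 158333 regions called in at least 1 ESC library and 3.07% of the 86542 regions called in 3 of 3 ESC WT libraries. The calls of the 6 ESC libraries chose these members, so their strength in ESCs is given as a description and was not tested. The cardiomyocyte libraries and the RNA libraries took no part in the choice.

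All cells were of strain C57BL/6 and either WT or Mettl3-KO. The labels do not say how the allele was made or how many clones were used. ESCs were compared with cultures labelled ESC-derived cardiomyocyte (CM), which were grown from embryoid bodies replated on gelatin. Each of the 4 groups had 3 ATAC-seq libraries, 1 library of chromatin-associated RNA and 1 list of m6A positions on that RNA. The labels do not state whether the 3 libraries were grown as separate cultures, and a p-value here reflects library-to-library spread that could be technical. CM KO replicate 3 is labelled as total RNA although its file is a peak list like the other 11, so the main CM results are also given without it.

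METTL3 is the catalytic subunit of the nuclear methyltransferase complex that writes N6-methyladenosine (m6A) on RNA. In ESCs the mark shortens the life of many transcripts, those of pluripotency factors among them, and on RNAs made at promoters, enhancers and repeats it affects how long they stay on chromatin. ATAC-seq marks open chromatin by where a transposase can insert sequencing adaptors, and most of its regions away from promoters are enhancers or other factor-bound elements.

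The ATAC-seq lists held 107125 to 119307 intervals per ESC library and 70132 to 94617 per CM library. The chromatin RNA of 10 ESC markers, in RPKM (reads scaled to gene length and library size), summed to 81.0 and 75.6 in WT and KO ESCs and to 10.6 and 18.1 in the WT and KO CM cultures. The 10 cardiomyocyte markers summed to 0.934, 0.732, 8.16 and 0.732 RPKM in the same order. Of these 10, 4 reached 1 RPKM in CM WT and 0 did so in CM KO, where Tnnt2 stood at 0.103 RPKM and Myh6 at 0.0322 RPKM. Mettl3 itself stood at 1.73 RPKM in ESC WT and 1.28 in ESC KO. The m6A list of ESC KO held 18019 positions and that of ESC WT 16925. Chromatin RNA of the whole gene does not check a deletion of part of it, and no value here checks the KO label in ESCs.

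Members seldom lay at promoters. The 300-base promoter windows of RefSeq, 250 bases before to 50 after an annotated start, met 43 members (1.62%), against 16.5% of the 74602 regions called in all 6 ESC libraries. Low shares were not particular to members. The windows met 2.41% of the 3362 regions called in 3 ESC WT libraries and 1 ESC KO library. They met 2.82% of the 2410 regions called in 0 ESC WT and 3 ESC KO libraries. The 5 windows below belong to protein-coding genes with at least 1 RPKM in any chromatin RNA library and share at least 100 bases with a member. They are shown because they are the members that can be tied to a promoter of an expressed gene, and they were picked by that rule with the values known. The sequences are those of RefSeq on GRCm38.p6, the assembly behind mm10, written 5′ to 3′ on the strand of the gene. Capitals mark matches on either strand to any of 10 searched motifs.
Ehmt2 promoter window: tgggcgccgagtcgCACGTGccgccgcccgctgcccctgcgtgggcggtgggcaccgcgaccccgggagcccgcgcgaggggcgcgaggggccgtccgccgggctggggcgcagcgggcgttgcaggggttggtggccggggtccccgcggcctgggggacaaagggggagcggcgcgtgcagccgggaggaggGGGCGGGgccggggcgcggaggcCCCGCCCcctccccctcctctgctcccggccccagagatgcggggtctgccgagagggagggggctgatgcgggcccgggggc
Pim1 promoter window: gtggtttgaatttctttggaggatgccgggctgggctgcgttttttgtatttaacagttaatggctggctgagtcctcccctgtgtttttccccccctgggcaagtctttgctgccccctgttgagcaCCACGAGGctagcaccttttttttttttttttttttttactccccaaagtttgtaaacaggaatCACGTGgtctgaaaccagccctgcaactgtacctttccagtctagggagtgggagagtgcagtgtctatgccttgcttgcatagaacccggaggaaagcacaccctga
Pbx2 promoter window: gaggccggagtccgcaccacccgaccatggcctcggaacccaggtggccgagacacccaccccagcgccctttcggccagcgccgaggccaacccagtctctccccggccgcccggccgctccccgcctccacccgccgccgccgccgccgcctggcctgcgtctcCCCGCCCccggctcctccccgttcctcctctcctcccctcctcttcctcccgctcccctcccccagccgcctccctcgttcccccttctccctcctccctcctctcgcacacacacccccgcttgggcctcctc
Ppbp promoter window: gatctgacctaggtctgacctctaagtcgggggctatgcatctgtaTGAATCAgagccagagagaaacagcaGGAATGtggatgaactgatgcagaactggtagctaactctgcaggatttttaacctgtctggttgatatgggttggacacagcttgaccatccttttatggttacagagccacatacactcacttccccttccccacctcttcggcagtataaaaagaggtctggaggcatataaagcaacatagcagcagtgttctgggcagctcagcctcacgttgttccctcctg
Lima1 promoter window: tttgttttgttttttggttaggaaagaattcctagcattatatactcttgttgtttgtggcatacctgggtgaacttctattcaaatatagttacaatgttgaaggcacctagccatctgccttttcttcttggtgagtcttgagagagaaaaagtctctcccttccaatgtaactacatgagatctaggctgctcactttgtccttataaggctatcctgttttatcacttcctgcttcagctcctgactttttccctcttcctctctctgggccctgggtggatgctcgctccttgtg

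The Ehmt2 window lies at chr17:34898720-34899019 on the plus strand and shared 196 bases with the member at chr17:34898824-34899832. Ehmt2 encodes G9a, a methyltransferase of lysine 9 of histone H3. The member covered the start of this GC-rich window (82.7% G or C), which lies inside the gene, and not the outer start of the gene. It had summits of 21, 26 and 34 reads in ESC WT replicates 1 to 3, the first just past the threshold of the lists at a −log10 q of 1.33. Ehmt2 chromatin RNA was 1.13 RPKM in ESC WT and 0.582 in ESC KO, and 1.37 in CM WT and 0.759 in CM KO. The member was called in 1 CM WT and 2 CM KO libraries.

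The Pim1 window (chr17:29492835-29493134, plus strand) belongs to a start inside this serine/threonine kinase gene and shared 232 bases with a member that had 49, 41 and 45 summit reads in ESC WT. Pim1 RNA was 1.77 RPKM in ESC WT and 1.32 in ESC KO. Pbx2, which encodes a TALE homeodomain partner of HOX proteins, had its whole window (chr17:34592009-34592308, plus strand) inside a member with 34, 28 and 26 summit reads, which was also called in 3 CM WT libraries and 1 CM KO library. Its RNA was 0.315 and 0.186 RPKM in ESC WT and KO, and 1.00 and 0.896 RPKM in CM WT and KO.

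The window of Ppbp (chr5:90768268-90768567, plus strand), a chemokine gene of platelets, lay wholly inside a member called in 3 CM WT and 0 CM KO libraries. Its RNA was 1.41 RPKM in CM WT, and the gene is not listed for the other 3 chromatin RNA libraries. Lima1, which encodes an actin-binding protein, was the gene of these 5 with the higher ESC RNA in KO (0.987 RPKM in WT and 1.74 in KO). Its member did not lie within 1 kb of an end of the gene, and RNA of the whole gene need not come from this start. Its window at chr15:99820100-99820399 on the minus strand shared 174 bases with a member of 11, 11 and 13 summit reads and held none of the searched motifs. Pim1, Pbx2 and Ehmt2 thus had lower ESC RNA in KO and Lima1 higher, each in 1 library per group with no replicate check. Lower values were the common direction: 73.3% of all expressed genes, and 90.6% of those on chromosome 17 where Pim1, Pbx2 and Ehmt2 lie, were lower in ESC KO.

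The 43 members met 45 windows of 43 genes, and these were poorer in CpG than the windows met by regions called in all 6 ESC libraries. The median ratio of observed to expected CpG was 0.298 in the 45 windows, 0.749 in the 15762 windows of those regions and 0.384 in all 32851 windows. The GC box GGGCGGG, bound by the SP and KLF families, was in 10 of the 45 windows (22.2%), against 47.5% and 25.6% in the same order. The AP-1 motif TGANTCA was in 6 (13.3%), against 4.62% and 7.81%, and the E-box CACGTG in 6 (13.3%), against 9.97% and 7.15%. The octamer ATGCAAAT, read by OCT4, and the estrogen-related receptor motif TCAAGGTCA were in 0 of the 45 and in 1.74% and 0.423% of all windows. The SOX motif ACAATNG was in 2 windows (4.44%, against 8.09% of all windows), the KLF motif GGGTGTGG in 3 (6.67%, against 3.56%) and the TEAD motif GGAATG in 9 (20.0%, against 14.7%). The motif AGATAA, bound by GATA factors, was in 2 (4.44%, against 11.2%) and the CTCF core CCACNAGG in 3 (6.67%, against 4.99%). None of the 10 motifs is contained in another, though matches can overlap in a window. These counts describe letters in windows and were not tested.

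Away from these windows the members were narrow as merged regions, and weak in the WT libraries that chose them. Their median width was 305 bp, against 581 bp for the regions called in all 6 ESC libraries. All widths of sets are of regions merged over the lists of all libraries. Merging can only widen a region, and members were by rule called in fewer ESC lists, so part of this gap can follow from the rule. Single intervals of ESC WT replicates 1 to 3 had median widths of 321, 323 and 320 bp. The summit, the base with the highest coverage, carried a median of 14, 13 and 13 reads in ESC WT replicates 1 to 3, against 31, 29 and 27 reads in the regions called in all 6, and the lowest summit in any ESC list had 7 reads. Ranked within each ESC WT list by p-value, members had median percentiles of 30.6, 26.8 and 24.4. In all, 91 members were at or above the 50th percentile of all 3 lists. The regions just outside the rule, 3362 called in 3 ESC WT libraries and in 1 ESC KO library and called the boundary set below, had median percentiles of 31.5, 28.1 and 24.4 and a median width of 334 bp. The set chosen in the opposite direction, 2410 regions called in 0 ESC WT and 3 ESC KO libraries and called the reverse set, had a median width of 310.5 bp.

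The 10 strongest members had mean percentiles of 69.8 to 78.8, and each can be followed through the 12 libraries. The strongest lay within Cpm (chr10:117653163-117653476), a carboxypeptidase gene, and had 41, 39 and 40 summit reads in ESC WT, no call in CM WT, and 14 and 17 reads in CM KO replicates 2 and 3. The member 5.67 kb from Tesc (chr5:118021470-118022072), a calcineurin-like calcium-binding protein gene, had 45, 32 and 34 reads in ESC WT and 20, 21 and 29 in CM KO, again with no call in CM WT. The member 23.2 kb from Rc3h1 (chr1:160882892-160883189), which encodes the RNA-binding protein roquin-1, had 28, 21 and 26 reads in ESC WT and 16, 17 and 14 in CM KO. All 3 were thus called in ESC WT and in 2 or 3 CM KO libraries but in 0 CM WT libraries.

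The member 43.8 kb from Etv5 (chr16:22337033-22337506), an ETS factor of ESC self-renewal, had 29, 24 and 28 reads in ESC WT and was called in 1 CM library, CM KO replicate 2, with 11 reads. Near Qk (chr17:10187566-10187904), an RNA-binding protein gene, 29, 22 and 29 reads in ESC WT stood beside 10 in CM WT replicate 3 and 19, 10 and 11 in CM KO. The member 15.8 kb from Dhrs4 on chromosome 14 (chr14:55462611-55462977) had 34, 31 and 36 reads in ESC WT and was called in no CM library. Of the 10, 9 were called in at least 1 CM KO library and 1 in a CM WT library. Calls in CM are usual for strong regions. Those called in all 6 ESC libraries with a mean percentile of at least 60 averaged 87.5% called per CM WT library and 88.5% per CM KO library. A nearest gene is given for position only.

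**Figure D1:**
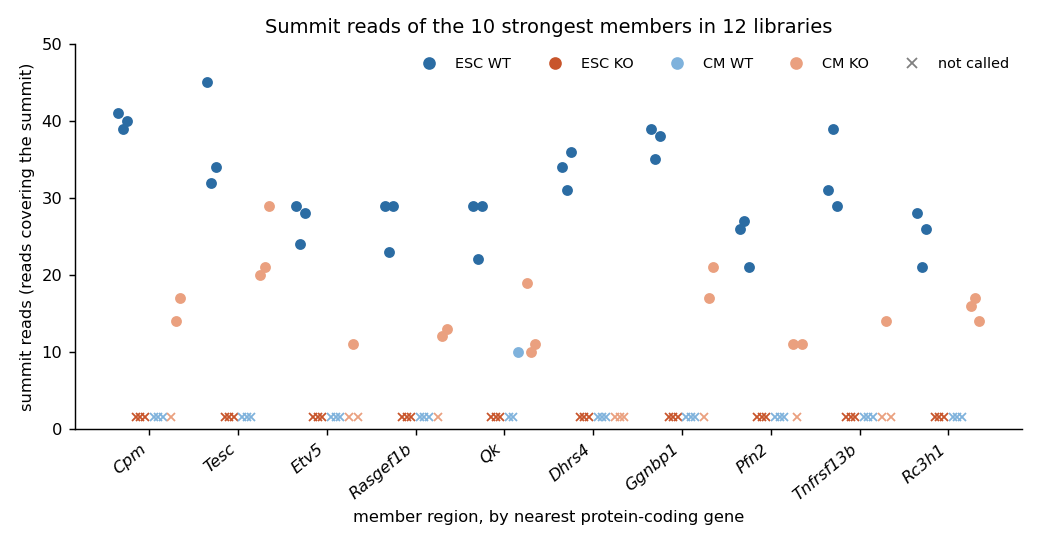
Summit reads (vertical axis, reads covering the summit) of the 10 strongest members in the 12 ATAC-seq libraries, labelled by the nearest protein-coding gene. Circles are single libraries and crosses near 0 are libraries without a call. No ESC KO library has a call by the choice of members, 1 CM WT circle is seen (Qk, 10 reads), and CM KO circles are seen at 9 of the 10 regions.

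The CM libraries asked whether the members were called after differentiation, and in which genotype. Most were not: 1894 members (71.4%) were called in no CM library, which does not show that they were closed. It was 63.1% of the boundary set, 51.4% of the reverse set and 11.2% of regions called in all 6 ESC libraries. In CM WT 8.82%, 10.3% and 9.84% of members were called, and in CM KO 7.92%, 13.2% and 9.31%. The groups overlapped, with means of 9.64% ± 0.737 (SD, n = 3) and 10.2% ± 2.76 (SD, n = 3), a difference of 0.515 points (two-sided exact permutation test, p = 0.9, smallest possible p 0.1). Without CM KO replicate 3 the difference, CM WT minus CM KO, was −0.961 points (p = 0.8, same exact permutation test). When every list, ESC lists included, was cut to the same number of its strongest intervals, members were chosen anew as 1896 regions. For that other set the difference was −10.5 points, without overlap of the genotypes (exact permutation p = 0.1).

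Members were called in CM less often than the boundary set in every CM library. The share of members minus that of the boundary set ran from −7.62 to −2.06 points, with a mean of −4.76 ± 2.07 points (SD, n = 6), below 0 in 6 of 6 libraries (two-sided exact sign-flip permutation test over the 6 libraries, p = 0.031, the smallest they can give). For regions at or above the 50th percentile of all 3 ESC WT lists the mean was 5.28 points in the other direction (exact p = 0.25). Of the reverse set, 19.7% ± 1.04 were called in CM WT and 21.4% ± 2.58 in CM KO (SD, n = 3 each), and members were 10.1 points lower in CM WT and 11.2 points lower in CM KO. The KO lists had fewer intervals, and this within-library gap differed by 1.17 points between the genotypes without overlap (exact permutation test, p = 0.1, the smallest possible). Taking the ratio of the shares in place of the difference gave an exact permutation p of 0.6.

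**Figure D2:**
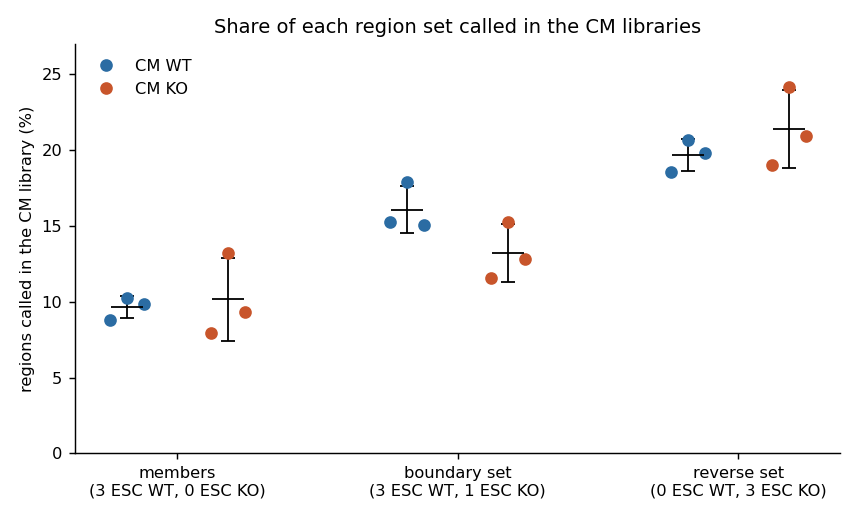
Percentage of each region set called in each CM library (vertical axis, %), with circles for libraries and bars for the mean ± SD of 3. Members lie between 7.92% and 13.2%, the boundary set between 11.6% and 17.9% and the reverse set between 18.6% and 24.1%, and CM WT and CM KO overlap in all 3 sets.

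Calls in all libraries of one CM genotype and none of the other were rare. There were 41 members called in 3 of 3 CM WT and 0 of 3 CM KO libraries (1.55%, against 1.13% of all regions called in 3 of 3 ESC WT) and 40 called in 0 CM WT and 3 CM KO libraries (1.51%, against 1.3%). With 1 library left out fewer have to meet the rule, and the counts became 49 (1.85%, against 1.67%) and 83 (3.13%, against 2.11%) without CM KO replicate 3. Without CM KO replicate 1 they were 50 (1.88%, against 1.63%) and 82 (3.09%, against 2.26%). Without CM KO replicate 2 they were 53 (1.998%, against 2.03%) and 50 (1.88%, against 1.67%). Leaving out CM WT replicate 1 gave 66 (2.49%, against 1.74%) and 44 (1.66%, against 1.796%). Leaving out CM WT replicate 2 gave 53 (1.998%, against 1.51%) and 42 (1.58%, against 2.03%). Leaving out CM WT replicate 3 gave 65 (2.45%, against 1.74%) and 46 (1.73%, against 1.93%). Neither direction was thus the more frequent throughout, in members or in all regions called in 3 of 3 ESC WT. A further 25 members (0.942%) were called in all 6 CM libraries, against 47.7% of all regions called in 3 of 3 ESC WT. In the boundary set, 1.93% were called in 3 CM WT and 0 CM KO libraries. The strongest of the 25 lay 52.3 kb from Chrd, which encodes a BMP antagonist, with 29, 30 and 38 summit reads in ESC WT, 22, 15 and 26 in CM WT and 13, 24 and 21 in CM KO. The next lay 81.1 kb from Tbx3, a T-box factor of heart and ESCs, with 38, 39 and 35 reads in ESC WT and 12 to 31 reads in the 6 CM libraries.

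Strong and weak members differed in CM. Members were grouped by their mean percentile in the ESC WT lists, in bands chosen after the data had been seen. Of the 198 members at or above the 50th percentile, 6.06%, 4.55% and 8.59% were called in CM WT and 29.8%, 44.4% and 32.8% in CM KO. The groups did not overlap, with means of 6.40% ± 2.04 and 35.7% ± 7.73 (SD, n = 3 each), a difference of 29.3 points (exact permutation test, p = 0.1, the smallest possible). Without CM KO replicate 3 it was 30.7 points, and over the 6 CM libraries left out in turn it ran from 24.9 to 32.2 points. Of the 2455 members below the 50th percentile, 9.90% ± 0.836 were called in CM WT and 8.09% ± 2.36 in CM KO (SD, n = 3 each, exact permutation p = 0.4). The gap between strong and weak members was thus −3.50 points in CM WT and 27.6 points in CM KO, without overlap between libraries (exact permutation p = 0.1, the smallest possible), and without CM KO replicate 3 the latter was 28.7 points.

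By value, the difference was larger in stronger members and smaller in regions with some ESC KO calls. Of the 73 members at or above the 60th percentile, 2.74%, 2.74% and 9.59% were called in CM WT and 32.9%, 56.2% and 47.9% in CM KO. In the boundary set at or above the 50th percentile (303 regions) the CM shares were 12.8% ± 1.25 in WT and 24.8% ± 4.88 in KO (SD, n = 3 each), a difference of 11.99 points, so the difference was 17.3 points larger in members (exact permutation p = 0.1, the smallest possible), and 17.6 points without CM KO replicate 3. Of the 694 regions of that strength with 2 ESC KO calls, 19.4% and 24.0% were called. Regions of that strength called in all 6 ESC libraries stood at 82.8% ± 0.695 in CM WT and 84.0% ± 2.12 in CM KO (SD, n = 3 each, exact permutation p = 0.6). The reverse set at or above the 50th percentile of the ESC KO lists (135 regions) stood at 24.0% and 45.4%, so a higher share in CM KO was not limited to members.

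Of the strong members, 0 were called in 3 CM WT and 0 CM KO libraries. Of the 53366 regions of that strength called in 3 of 3 ESC WT it was 0.733%. The opposite pattern, 0 CM WT and 3 CM KO libraries, held 25 of the 198, against 1.24% of the same 53366. Without CM KO replicate 3 the counts of strong members were 0 (against 1.09%) and 40 (against 1.82%). Of the 53366, however, 52171 were called in all 6 ESC libraries, and sets without that trait had the opposite pattern more often. At that strength it held 21 of 303 boundary regions, 32 of 694 regions with 2 ESC KO calls and 12 of 135 reverse-set regions (ranked in ESC KO). Calls in 3 CM WT and 0 CM KO libraries were 6, 14 and 1 in the same order. The 25 strong members called in 0 CM WT and 3 CM KO libraries had median summits of 24, 21 and 21 reads in ESC WT and 13, 15 and 12 in CM KO. Besides the members near Tesc and Rc3h1, they included one 135 kb from Fgfr2 (chr7:130027514-130027873), a fibroblast growth factor receptor gene, with 23, 33 and 19 reads in ESC WT and 12, 15 and 16 in CM KO. One lay 189 kb from Myc (chr15:62179799-62180195), with 25, 30 and 27 reads in ESC WT and 13, 17 and 16 in CM KO. One lay 20.9 kb from Sos1 (chr17:80501324-80501671), which encodes a RAS exchange factor, with 52, 47 and 44 reads in ESC WT and 16, 26 and 35 in CM KO. In the other direction, the 5 highest-ranked members called in 3 CM WT and 0 CM KO libraries had mean percentiles of 39.9 to 49.0. The first, 64.8 kb from Ttc29, had 18, 22 and 13 reads in ESC WT and 16, 12 and 12 in CM WT, and those near Nus1 and Ddhd1 had 11 to 20 reads in ESC WT. One in Mgat3 had 28, 20 and 20 reads in ESC WT and 19, 28 and 22 in CM WT, and one in Zc3h12a had 36, 36 and 26 and 23, 27 and 23. The last was thus above the medians of the 25 in reads and below them in rank, since the rank is by p-value, which also counts the local background.

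Marker RNA of several cell types differed between the CM libraries. Of the 10 ESC markers, 5 had at least 1 RPKM in CM WT and 7 in CM KO, with sums of 10.6 and 18.1 RPKM. Nanog stood at 0.842 and 1.76 RPKM, Zfp42 at 0.837 and 2.02 and Pou5f1 at 1.34 and 1.32, while Sox2 is not listed in any library. In CM WT and CM KO the 8 fibroblast markers summed to 35.4 and 14.3 RPKM, the 6 endoderm markers to 16.6 and 7.78, the 4 blood markers to 40.8 and 45.5 and the 5 neural markers to 1.78 and 1.52. The marker sums, from 1 library per group, thus differed in more than the ESC and cardiomyocyte markers. Whether the cell mixtures differed, and their part in the CM results, was not tested. In bulk libraries fewer cells of a type and less signal per cell cannot be told apart.

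**Figure D3:**
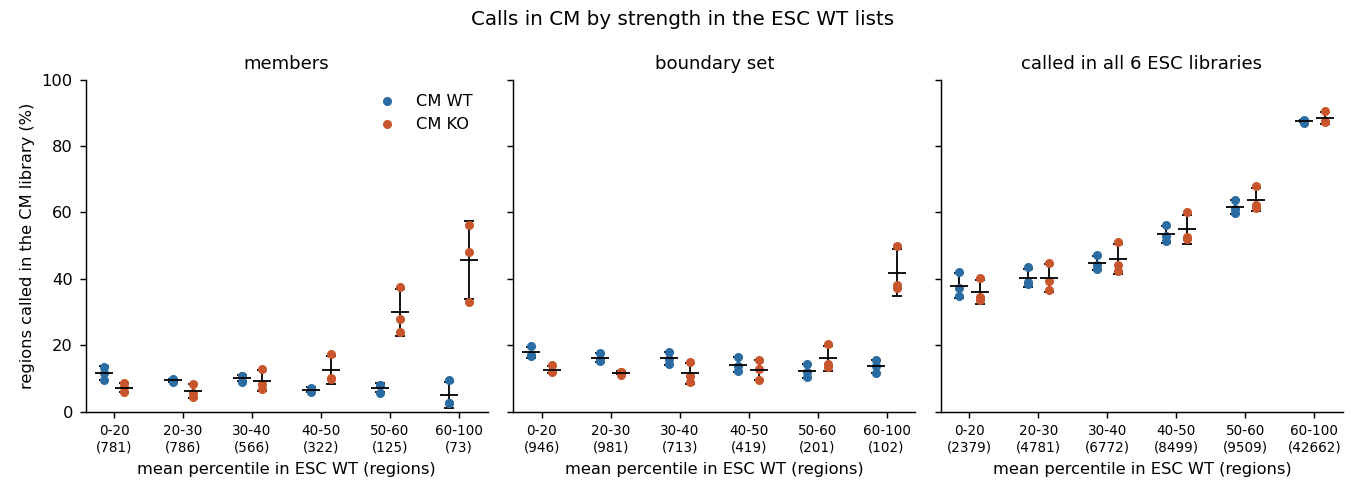
Percentage of regions called in each CM library (vertical axis, %) by band of mean percentile in the ESC WT lists (horizontal axis, number of regions in parentheses), for members, the boundary set and regions called in all 6 ESC libraries. Circles are libraries and bars the mean ± SD of 3. In the band from 60 to 100 members lie at 5.02% in CM WT and 45.7% in CM KO on average, while regions called in all 6 ESC libraries have overlapping genotypes in every band drawn.

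Members were unevenly spread over the chromosomes, with an excess on chromosome 14, which carries Mettl3. On chromosome 14, 214 of 3303 regions called in 3 of 3 ESC WT were members (6.48%, 95% Clopper-Pearson interval 5.66 to 7.37, counting error only), against 2.93% of those on all other chromosomes, where the share ran from 1.74% on the X chromosome (33 members) to 3.89% on chromosome 16. Chromosome 17 stood at 3.81% (154 members). The reverse set was lowest on chromosome 14 (1.36% of regions called in 3 of 3 ESC KO) and highest on the X chromosome (5.66%) and chromosome 6 (4.90%). All 13 bins of 10 Mb on chromosome 14 held members, at 3.81% to 10.4% of their ESC WT regions, so the excess was not a single locus. No member lay at Mettl3 itself.

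**Figure D4:**
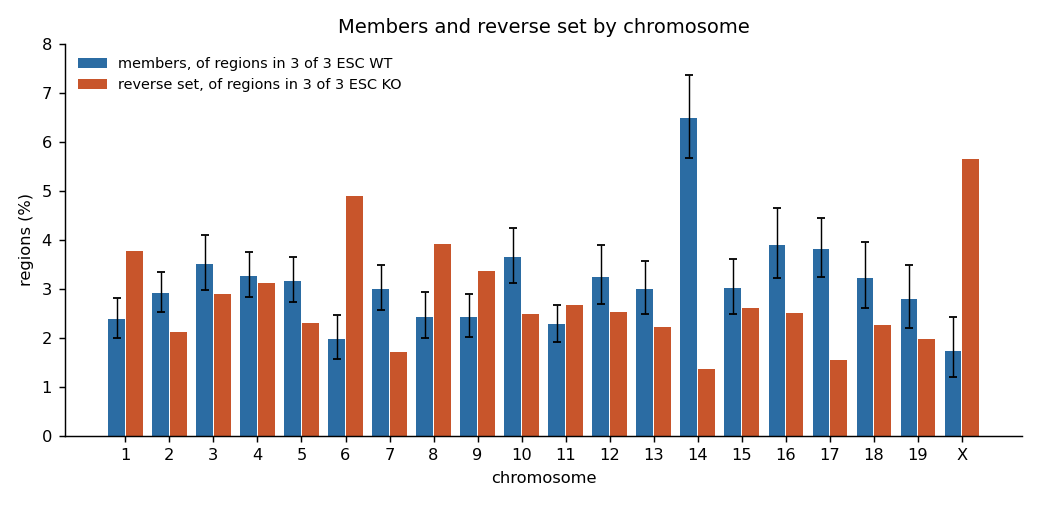
Members as a percentage of regions called in 3 of 3 ESC WT (blue, with 95% Clopper-Pearson intervals) and the reverse set as a percentage of regions called in 3 of 3 ESC KO (orange), by chromosome. Chromosome 14 has the highest member bar (6.48%) and the lowest reverse bar (1.36%), and the X chromosome the lowest member bar (1.74%) and the highest reverse bar (5.66%).

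Readouts that the rule did not use were also low on chromosome 14. In the CM libraries, summit reads of the regions called in all 12 libraries were set relative to the median chromosome of each library and compared on the log2 scale. On chromosome 14 (1390 regions) CM KO libraries stood at −0.15, −0.13 and −0.13 and CM WT libraries at 0.00065, −0.00083 and 0.0012, a difference of −0.14 with no overlap (exact permutation p = 0.1, the smallest possible, Benjamini-Hochberg adjusted over 20 chromosomes 0.105). On chromosome 17 the difference was −0.11 and on the X chromosome 0.20, and the 3 values were −0.14, −0.12 and 0.20 without CM KO replicate 3. Libraries of the 2 CM genotypes did not overlap on 19 of the 20 chromosomes (95%), so non-overlap by itself set chromosome 14 apart from few others. In the ESC libraries, which chose the members, the difference over regions called in all 6 was −0.27 on chromosome 14, below 0 in 13 of 13 bins, with no overlap on 16 of the 20 chromosomes (80%, and 85% over the regions called in all 12 libraries).

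Chromatin RNA was lower on chromosome 14 as well. Protein-coding genes that reached 1 RPKM in either library had a median log2 ratio of RPKM + 1, KO over WT, of −0.10 in ESC (4396 genes, 73.3% below 0) and 0.12 in CM (4367 genes, 25.9% below 0). The chromosome 14 genes had medians of −0.32 in ESC (160 genes, 98.1% below 0) and −0.04 in CM (150 genes, 61.3% below 0). Relative to the medians of all genes, chromosome 14 stood at −0.22 in ESC and −0.17 in CM. On this relative scale chromosome 17 stood at −0.12 and −0.19, and the X chromosome at 0.11 and 0.08. These are single libraries and compare libraries, not conditions.

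Of regions called in 3 of 3 CM WT, 16.96% on chromosome 14 and 11.6% on all chromosomes were called in 0 CM KO libraries. Over the 20 chromosomes, the share of members had a Pearson r of −0.77 with the CM summit difference and −0.72 with the CM RNA median (Spearman rho −0.79 and −0.72), and of −0.78 and −0.69 without chromosome 14. These describe 20 points that share their libraries and have no p-value. The number of chromosome copies per cell was not measured in these data, and its part in the chromosome 14 values was not tested. Without chromosome 14 the 198 strong members became 181 and their CM shares 6.81% and 37.4%, so the pattern of strong members was as large without it.

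**Figure D5:**
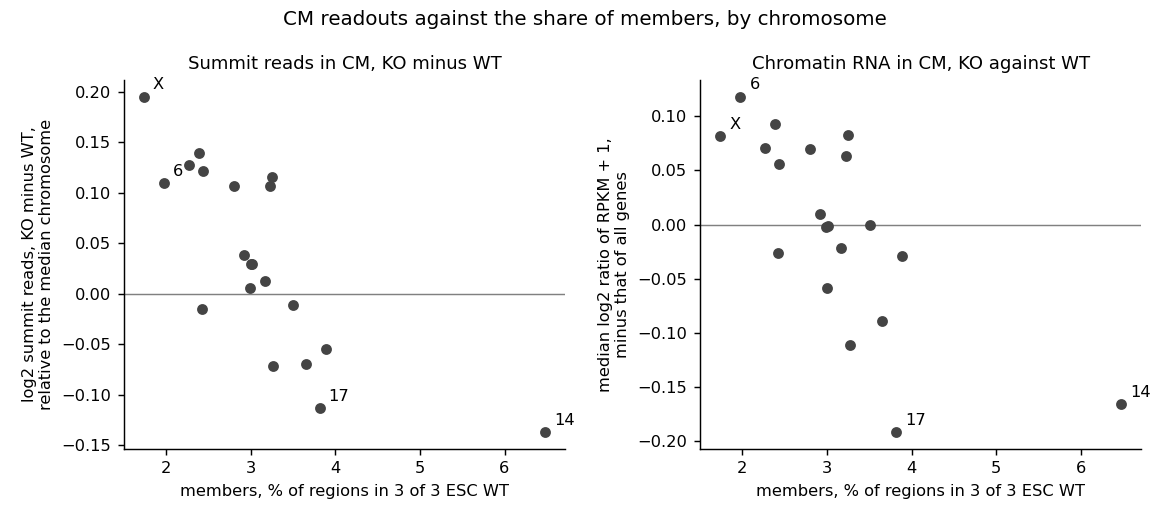
CM values by chromosome against the share of members (horizontal axis, % of regions called in 3 of 3 ESC WT). The left panel shows log2 summit reads, CM KO minus CM WT, relative to the median chromosome, and the right panel the median log2 ratio of chromatin RNA minus that of all genes. Each point is 1 of 20 chromosomes. Chromosome 14 lies at −0.14 and −0.17 and the X chromosome at 0.20 and 0.08.

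By gene annotation, members were mostly inside genes or between them. At a gene end, within 1 kb of either end of a protein-coding gene, lay 136 members (5.13%), against 21.7% of regions called in all 6 ESC libraries, 6.78% of the boundary set and 5.23% of the reverse set. Inside a gene body only lay 47.5% and outside genes 47.3%. Some members were neighbours: 97 pairs, 6 triplets and 1 quadruplet of members followed each other with no other region called in 3 ESC WT libraries between them. How many such runs the share of members alone would give was not worked out. The quadruplet spanned 181 kb of chromosome 10, with Reep3 as the nearest protein-coding gene, and its strongest member had 29, 24 and 20 reads in ESC WT and 12, 13 and 8 in CM KO. Of the 4 longest triplets, 3 lay on chromosome 14, near Klf12, Il3ra and Arhgef3. None of their 9 members was called in a CM library, as held for 71.4% of all members. The other triplet lay near Qk and holds the strong member described above.

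Of 330 genes in 16 lists (pluripotency, signalling, chromatin, m6A machinery, cell cycle, imprinting and markers of other cell types), 3 had a member at a gene end (0.909%), near the share of all 21900 protein-coding genes (0.694%). Ehmt2 is described above. Cdk1, the kinase that drives mitosis, had a member within 1 kb of an end (chr10:69333869-69334460) with 34, 27 and 36 summit reads in ESC WT, called in 1 CM KO library, and its RNA was 4.49 RPKM in ESC WT and 3.64 in ESC KO. Mbd2, which encodes a methyl-CpG binding protein, had a member of 16, 12 and 10 reads at one end, and its RNA was 0.935 and 0.756 RPKM. In the gene body, 26 of the listed genes held a member (7.88%), against 5.52% of all protein-coding genes, with no test and no match for gene length. They included Esrrb, Klf5 and Fbxo15 of the pluripotency list (3 of 29 genes), the m6A writer subunit Rbm15b (1 of 21 m6A genes), the chromatin proteins Kdm2b, Cbx7 and Chd4 (with Ehmt2, 4 of 30), the signalling genes Fgfr3, Spred2 and Dusp4 (3 of 20 FGF and ERK genes), and the imprinted genes Igf2r, Meg3, Grb10, Gnas and Zdbf2 (5 of 31). Of the 20 cardiac transcription factors 0 held one, beside the 5.52% of all genes given above.

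Genes with a member at an end had slightly lower chromatin RNA in KO ESCs, close to all genes. Of 152 such protein-coding genes, 128 were in the RNA table and 40 had at least 1 RPKM in either ESC library. Of the 40, 32 had a log2 ratio of KO to WT below 0 (80.0%, 95% Clopper-Pearson interval 64.4 to 90.9, counting error only), against 73.3% of all 4396 genes, and the median was −0.16 against −0.10. On log2(RPKM + 1), 0 of the 40 were 2-fold lower or higher, against 0.114% and 0.091% of all genes. On chromosomes 14 and 17, 6 of 6 were below 0 (against 93.8% of all 373 genes there), and without these chromosomes 26 of 34 (76.5%, against 71.4% of all genes). In CM 15 of 39 were below 0 (38.5%, against 25.9%). Of the 295 genes with a member in the gene body, 73.6% were below 0 in ESC, at the level of all genes.

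The lowest of the 40 was Foxp4, a forkhead factor on chromosome 17, at 1.63 RPKM in ESC WT and 0.640 in ESC KO (log2 ratio −0.68). Slc38a2, a neutral amino acid transporter, stood at 14.9 and 10.3 RPKM (−0.50), and Rps24, a ribosomal protein gene on chromosome 14, at 15.01 and 10.998 RPKM (−0.42). Sugt1, a co-chaperone of kinetochore assembly on chromosome 14, stood at 2.37 and 1.38 RPKM (−0.50), and its member had 46, 37 and 50 summit reads in ESC WT and was called in 0 CM WT and 3 CM KO libraries. The other genes among the 8 lowest were Zfp977, Ehmt2, Trim35 and Etfbkmt, at −0.53 to −0.40. At the other end Plpp1, a lipid phosphatase, stood at 2.30 and 3.04 RPKM (0.29) and Cluh, which binds mRNAs of mitochondrial proteins, at 2.13 and 2.52 RPKM (0.17). The remaining 6 of the 8 highest, Rad51b, Uck2, Slc25a5, Capns1, Cdc27 and Zfp148, lay between 0.01 and 0.07. Each ratio compares 1 library with 1 library on log2(RPKM + 1), which understates changes of low genes, and RNA of overlapping genes cannot be told apart.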

How the data were processed

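The members and gene lists were chosen with earlier results of these data known. Per the submitters' processing notes, the build was mm10 and the tools were MACS2, Bowtie, HISAT2, Picard and cutadapt, with roles and settings not given in the sources used here. ATAC-seq reads were single end of 75 bp, per the labels' protocols. Each deposited ATAC-seq list holds 1 library, with the authors' score, fold enrichment (a ratio over local background), and, for each summit, −log10 of the p-value and of the q-value, the lowest −log10 q being close to 1.3. A shift for the transposase is not stated. Intervals of all 12 lists sharing 1 bp were merged. Summit reads were solved from fold and p under the Poisson model of MACS2 (largest misfit 0.000379), and background pileups ran from 1.58 to 2.53 reads per base, the only measure of depth. The deposited chromatin RNA files hold the authors' RPKM, 1 library per group, used as log2(RPKM + 1) with no test. Of 22332 gene identifiers, 22221 had a symbol.

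CM shares were compared with two-sided exact permutation tests (3 against 3, smallest p 0.1). Replicate numbers were not used to pair libraries in these tests. The deviations of same-numbered libraries had correlations of 0.00280 to 0.00390 in ESC and −0.0148 to −0.000346 in CM. Those of other-numbered libraries had −0.00227 to −0.000842 in ESC and −0.00733 to 0.0157 in CM. Such small values do not settle whether ESC libraries were paired. Named genes and regions follow fixed ranks: the 10 strongest members, the first members of each CM pattern, the longest runs, listed genes, and the 8 highest and 8 lowest RNA ratios; the regions called in 0 CM WT and 3 CM KO libraries were added after their values were seen. The m6A lists give a gene and an offset from an origin that is not stated, so m6A positions could not be placed in members, and genes were counted instead. Code was tested on simulated data. Python 3.11.15, numpy 2.4.6, pandas 2.3.3, scipy 1.17.1 and matplotlib 3.10.9 were used. Alternatives covered thresholds, depth, merging, distance, strength, libraries left out and RNA settings.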

Additional observations from a re-analysis of the deposited data

Results flagged for a closer look

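On 6 chromosomes the summit reads of regions called in all 12 libraries, relative to the median chromosome, moved one way in every ESC KO library and the other way in every CM KO library, with no overlap with WT. The difference between the cell types was not tested. The CM values, KO minus WT on the log2 scale, were 0.0387 on chromosome 2, 0.0131 on chromosome 5, 0.0297 on chromosome 7, −0.0153 on chromosome 9, 0.107 on chromosome 18 and 0.107 on chromosome 19. The ESC values were −0.0277, −0.0108, −0.0142, 0.0419, −0.0149 and −0.0189 in the same order. All 12 are smaller in size than the chromosome 14 differences in both cell types, which had 1 sign.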

How the results depend on the processing

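The count of 2653 members ranged from 2653 to 4829 with 1 library left out, since fewer libraries then have to meet the rule, at 4131 without ESC WT replicate 2 and 4829 without ESC WT replicate 3. It fell to 91 when only intervals at or above the 50th percentile of all 3 lists were taken. The CM WT minus CM KO share of members ranged from −1.64 to 1.01 points with 1 library left out, above 0 without any single ESC library and without CM KO replicate 2. With 3 against 3 libraries no setting could pass 0.05. It was −40.3 points at or above the 50th percentile of all 3 lists (p = 0.1, exact permutation test). With an equal number of intervals per list, which also chose the members anew (1896 regions), it was −10.5 points (p = 0.1, exact permutation test), with no overlap. The gap to the reverse set between genotypes ranged from −0.419 to 1.997 points with 1 library left out, and was −0.760 points at a −log10 q of 5 or more and −15.1 points at or above the 50th percentile of the lists. The members minus boundary share ranged from −8.84 to −4.23 points with 1 library left out, and leaving out a CM library raises the smallest possible p to 0.0625. It was 5.28 points at or above the 50th percentile of the lists (exact p = 0.25), a mean over CM WT and CM KO libraries that differed as given above. With the replicate block the first 2 differences had exact p = 1 and 0.25, the latter the smallest it allows. The share of genes lower in ESC KO was 62.5%, against 50.0% of all genes, after scaling the libraries to a median ratio of 0. The cause of these changes was not tested. Members had median summits of 13 to 14 reads where the lowest called had 7, and 2756 regions met the rule after all lists were thinned to the same background pileup, so absence of a call does not show closed chromatin.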

Other observations

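Genes with a member in the gene body had a listed m6A position more often, by value, than all genes in each of the 4 lists. Of the 295 such genes with at least 1 RPKM in either ESC library, 248 (84.1%) had a listed m6A position in ESC WT, against 72.4% of all 4396 genes of that level. In ESC KO it was 82.4% against 73.7%, in CM WT 85.1% against 77.8% and in CM KO 66.8% against 57.8%. The difference was not tested, the gene sets were not matched for length, and the lists hold 16925, 18019, 25546 and 13922 positions in the same order, 1 list per group.

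Members on chromosome 14 were called less often in CM KO than in CM WT. Of the 214 members there, 11.7%, 10.7% and 10.7% were called in CM WT and 4.21%, 7.01% and 6.54% in CM KO, without overlap (exact permutation p = 0.1, the smallest possible, and 5.61% on average without CM KO replicate 3). Members on the other chromosomes stood at 9.51% and 10.52% on average, with overlapping libraries (exact permutation p = 0.9). The share on chromosome 14 minus that on the others was 1.55 points in CM WT and −4.60 points in CM KO, without overlap (exact permutation p = 0.1, the smallest possible). Within bands of strength the values on chromosome 14 had the same sign as elsewhere: its 17 strong members stood at 1.96% in CM WT and 17.6% in CM KO, and its 197 weak members at 11.8% and 4.91%, beside 6.81% and 37.4% for strong and 9.73% and 8.37% for weak members elsewhere.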
